A study of Rattus norvegicus with 6 samples.

Results

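The keratin genes were read from RNA sequencing of 6 PAIII tumors, as every row of the deposited table whose symbol is Krt followed by a digit. This gave 44 keratins among 17030 gene symbols, of which 27 were type I and 17 type II chains, and no keratin symbol was repeated. PAIII is a hormone-resistant prostate tumor line that is kept by passage in Lobund-Wistar rats, so every tumor here came from 1 transplanted line. Cells were placed under the skin of the flank of rats 2 months old. Rats A1, A6 and A12 (replicates 1, 2 and 3) received digitoxin, a cardiac glycoside that blocks the sodium pump, at 0.03 mg per kg each day from day 10, and rats B5, B9 and B14 (replicates 1, 2 and 3) received vehicle only. Tumors were taken on day 40, and RNA was pooled from 10 micropunches of viable tumor, giving 1 library per rat and n = 3 in each group. The rats were picked for low serum IL-6 and CINC-1 in the digitoxin group and high levels in the vehicle group, so treatment and these serum markers cannot be told apart.

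Keratins are the intermediate filament proteins of epithelial cells. A filament is built from pairs of an acidic type I chain and a basic type II chain, and each kind of epithelium makes its own pairs. Krt8 with Krt18 or Krt19 marks simple, glandular epithelium, Krt5 with Krt14 marks the basal layer of stratified epithelium and the basal cells of the prostate gland, and Krt1 with Krt10 or Krt4 with Krt13 marks the upper layers of squamous epithelium. Krt16 and Krt17 are known as keratins of wounded or stressed epithelium, and a large further set serves the hair shaft and the inner root sheath around it. In the table, 26 keratins lay on chromosome 10 between 86986161 and 87966157 and 18 on chromosome 7 between 140796566 and 141429360, where Krt18, although a type I chain, sits beside Krt8. These positions are those the table gives, and its build could not be settled from the sources used here.

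Levels are given as FPKM, the fragments assigned to a gene per kilobase of its transcript and per fixed number of mapped fragments, which may be compared between genes of 1 tumor. The depth behind each FPKM is unknown, so low values have no known precision, and a gene whose FPKM is 0 is called listed at 0. Some such entries may be failed estimates, since the collagen gene Col1a2 is listed at 0 in all 6 tumors. Libraries did not group by treatment. A12 and B14 had the highest correlation across rows, r = 0.985, and A6 and B14 the lowest, r = 0.618, where genes are not independent replicates. The summed FPKM of 13 lung alveolar genes was 52387 FPKM for A1, 85950 for A6, 28300 for B5 and 36790 for B9, but 54.1 for A12 and 78.8 for B14. All 6 libraries are labelled as flank tumors, so the source of these lung transcripts is not known, and how far the keratin levels of A1, A6, B5 and B9 are those of tumor cells was not tested. Of the listed prostate genes, 4 had a mean of at least 1 FPKM, with means of 39.2 FPKM for Fkbp5, 21.2 FPKM for Tmprss2 and 3.997 FPKM for Acpp, of which Fkbp5 and Tmprss2 are also expressed in other tissues. Of the others, Pbsn was listed at 0 in every tumor and Hoxb13 was at most 0.0937 FPKM, both named after their values were seen. Epcam, a surface protein of epithelia, was between 208 FPKM (A1) and 525 FPKM (A12).

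Most keratin mRNA in these tumors was that of simple epithelium. Krt19, Krt8 and Krt18 were the 3 most abundant keratins by mean FPKM, and the 4 simple keratins in the table held between 91.9% (B14) and 97.5% (A6) of all keratin FPKM. All other keratins, 40 genes, held the remainder. The heat map of the 44 keratins shows this as 3 bright rows above a field that is mostly dark. Of the 44 keratins, 12 had a mean of at least 1 FPKM, 3 more (Krt2, Krt13 and Krt75) reached 1 FPKM in at least 1 tumor, and 29 stayed under 1 FPKM in every tumor. Krt7, Krt6a and Krt6b had no row under these symbols among the 44, so they were not analysed here.

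**Figure D1:**
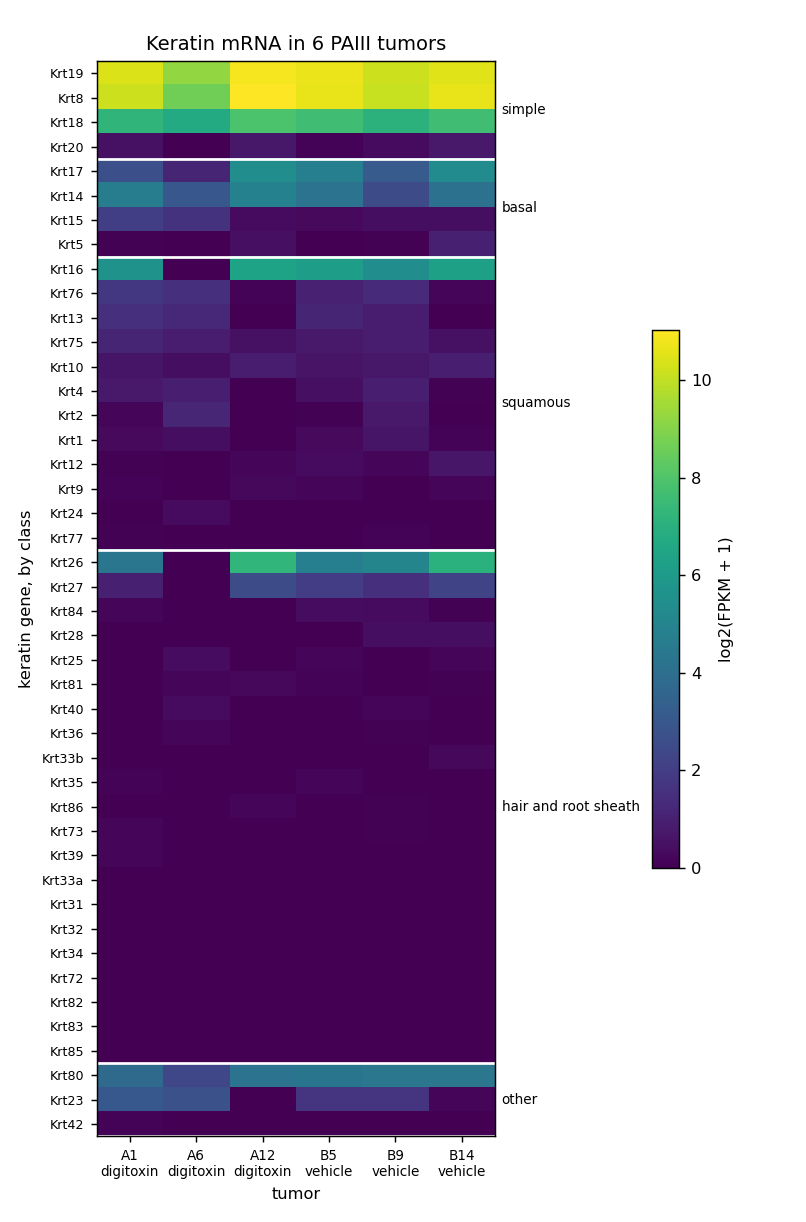
Heat map of log2(FPKM + 1) for the 44 keratins (rows, by class and then by mean FPKM) in the 6 tumors (columns, with the labelled treatment). Krt19, Krt8 and Krt18 are high in every tumor, Krt16 and Krt26 are dark in A6, and most of the 21 hair and root sheath keratins are at or near 0.

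Krt8, the type II chain of simple epithelium, was at 1181, 398 and 2095 FPKM in digitoxin tumors A1, A6 and A12 and at 1618, 1086 and 1629 in vehicle tumors B5, B9 and B14. It ranked between 31st (A12) and 286th (A6) among all symbols of a tumor. A6 was the lowest and A12 the highest, and the remaining tumors lay between them in both groups. Krt19, the smallest keratin and a type I partner of Krt8, was at 1416, 599 and 1865 FPKM in digitoxin tumors A1, A6 and A12 and at 1660, 1153 and 1448 in vehicle tumors B5, B9 and B14. Krt18, the other type I partner, was at 148, 106 and 241 FPKM in digitoxin tumors A1, A6 and A12 and at 198, 134 and 197 in vehicle tumors B5, B9 and B14. The order of the tumors was nearly that of Krt8, with A6 again lowest and A12 again highest. Krt20, a simple keratin of gut lining, stayed under 1 FPKM in all 6 tumors, and its highest value was 0.669 FPKM in B14.

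The 3 simple chains varied together but not to the same degree. The highest tumor was above the lowest by 5.27 times for Krt8, 3.11 times for Krt19 and 2.27 times for Krt18. Krt8 was 3.74 times Krt18 in A6, against 7.98 times in A1 and 8.69 times in A12 and between 8.13 and 8.25 times in the vehicle tumors. The ratio of Krt8 to Krt19 ran from 0.664 in A6 to 1.13 in B14. Both ratios were thus lowest in A6. In whole tissue, fewer cells of a type and less RNA per cell cannot be told apart. RefSeq lists 6 pseudogenes of Krt18 and 1 of Krt8, and how the authors' counting shared reads with such copies is not given in the sources used here, so the absolute level of Krt18 is uncertain.

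Vimentin (Vim), the intermediate filament of mesenchymal cells, was of the same order of abundance as Krt8. Vim was at 1855, 1689 and 1684 FPKM in digitoxin tumors A1, A6 and A12 and at 1574, 1117 and 1975 in vehicle tumors B5, B9 and B14. The ratio of Krt8 to Vim was lowest in A6, at 0.235, and highest in A12, at 1.24, with 0.637 in A1, 1.03 in B5, 0.972 in B9 and 0.825 in B14. The low ratio of A6 came with a low Krt8 level and not with a high Vim level. Against Epcam, Krt8 was 1.87 times in A6 and between 3.52 and 5.68 times in the other tumors. Among 12 general epithelial genes the ratio of Krt8 to the gene was lowest in A6 for 10. For the tight junction genes Cldn4 and Marveld2, named after their values were seen, it was highest in A6, at 59.4 and 449.

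Summed over the 44 keratins, type I chains exceeded type II chains in every tumor. The sums do not hold Krt7, a type II chain of simple epithelium, or Krt6a and Krt6b, the usual type II partners of Krt16 and Krt17, so the excess is that of the chains analysed here. The ratio of type I to type II FPKM stood at 1.40, 1.78 and 1.14 in digitoxin tumors A1, A6 and A12 and at 1.22, 1.24 and 1.16 in vehicle tumors B5, B9 and B14. Krt18 and Krt19 together were between 1.005 times (A12) and 1.77 times (A6) the level of Krt8. Type I keratins other than Krt18 and Krt19 summed to 113, 18.6 and 310 FPKM in digitoxin tumors A1, A6 and A12 and to 147, 92.7 and 269.7 in vehicle tumors B5, B9 and B14. Type II keratins other than Krt8 summed to 17.9, 9.36 and 18.3 FPKM in digitoxin tumors A1, A6 and A12 and to 21.3, 24.5 and 21.4 in vehicle tumors B5, B9 and B14. The ratio of these sums was 1.99 in A6 and between 3.79 (B9) and 16.9 (A12) in the other tumors, so A6 had nearly the ratio of its simple chains. Most of the type II sum was Krt80 except in A6, and without Krt80 the type II sums were between 1.13 FPKM (A12) and 5.32 FPKM (A6). Krt14, Krt16 and Krt17, the type I chains of stratified epithelium, summed to 8.25 FPKM in A6 and to between 54.8 FPKM (B9) and 152 FPKM (A12) in the other tumors.

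**Figure D2:**
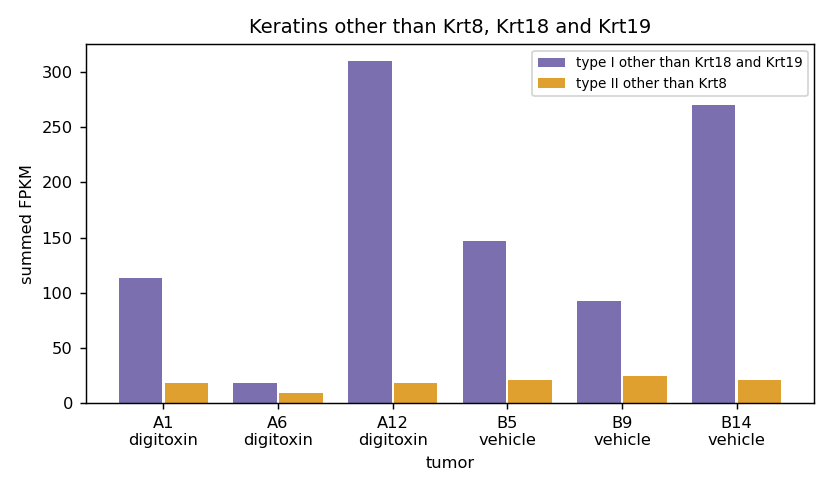
Summed FPKM (vertical axis, from 0) of type I keratins other than Krt18 and Krt19 and of type II keratins other than Krt8 in each tumor (horizontal axis). The type I sums run from 18.6 in A6 to 310 in A12, and the type II sums from 9.36 in A6 to 24.5 in B9.

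Among basal keratins, Krt14 and, outside A6, Krt17 were measured well above 1 FPKM, while Krt5, the usual type II partner of Krt14, was not. Krt5 was listed at 0 in A6 and B5 and was at most 0.939 FPKM, in B14. Its row in the table, on chromosome 7 from 141118057 to 141270935, spans the rows of Krt1, Krt2, Krt72 and Krt73 and overlaps that of Krt77, so the assignment of reads to Krt5 is uncertain. Krt14, the basal type I chain, was at 24.1, 7.05 and 27.4 FPKM in digitoxin tumors A1, A6 and A12 and at 17.3, 4.96 and 16.7 in vehicle tumors B5, B9 and B14. The lowest Krt14 level was in B9, and A6 was second lowest, so the groups overlapped. Krt17, made by basal cells of skin appendages and by injured epithelium, was at 5.48, 1.20 and 41.3 FPKM in digitoxin tumors A1, A6 and A12 and at 25.9, 8.07 and 39.3 in vehicle tumors B5, B9 and B14. It varied 34.5-fold over the 6 tumors, the widest range among the tested keratins that were above 0 in all of them. Krt15, found in basal cells and in stem cells of the hair follicle, was at 3.16 FPKM in A1 and 2.04 in A6, but A12 was at only 0.242, and the vehicle tumors B5, B9 and B14 were at 0.227, 0.341 and 0.316. Tp63, the transcription factor of basal cells, was between 0.135 FPKM (A6) and 1.75 FPKM (B14), and it is named here after its values were seen.

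Of the 12 squamous keratins in the table, Krt16 alone was abundant. Krt16, a type I keratin induced in wounded and overgrown epidermis, was at 49.8 FPKM in A1 and 83.2 in A12, against 70.2 in B5, 41.8 in B9 and 75.2 in B14, and it was listed at 0 in A6. Apart from that entry, the 5 tumors lay within a range of 41.8 to 83.2 FPKM and the groups overlapped. Krt76, a type II keratin of the oral lining, was at 2.48, 1.80 and 0.0774 FPKM in digitoxin tumors A1, A6 and A12 and at 1.04, 1.56 and 0.102 in vehicle tumors B5, B9 and B14. Krt13, a type I keratin of mucosal squamous epithelium, was at 1.90 FPKM in A1, 1.37 in A6, 1.24 in B5 and 0.819 in B9, and was listed at 0 in A12 and B14. Krt76 and Krt13 thus shared an order in which A12 and B14 were lowest. Krt4, the type II partner of Krt13, was at most 0.911 FPKM (A6). Krt2, of the upper epidermis, reached 1.29 FPKM in A6, and Krt75, of the hair follicle's companion layer and counted with this class, reached 1.22 FPKM in A1. Krt1 and Krt10, the pair that defines cornifying epidermis, were at most 0.531 and 0.899 FPKM. Of the 12 squamous keratins, 7 stayed under 1 FPKM in every tumor.

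Krt26 is a type I keratin known from the inner root sheath of the hair follicle, and it was abundant in these tumors. It was at 19.0 FPKM in A1 and 151 in A12, against 25.9 in B5, 31.0 in B9 and 131 in B14, and was listed at 0 in A6. A12 and B14 were far above the other tumors, and 1 of them is from each group. In A12 it ranked 756th of all symbols. In A12 and B14 it followed Krt19, Krt8 and Krt18 in level, while in A1, B5 and B9 it was below Krt16. Krt27, another inner root sheath keratin and the next keratin along chromosome 10 in the table, was at 0.950 FPKM in A1 and 4.75 in A12, against 2.96 in B5, 1.81 in B9 and 3.79 in B14, and was listed at 0 in A6. Its neighbors Krt25 and Krt28, of the same sheath, were at most 0.306 and 0.342 FPKM. The remaining 19 of 21 hair and root sheath keratins stayed under 1 FPKM in every tumor, and 6 of the 21 (Krt32, Krt34, Krt72, Krt82, Krt83 and Krt85) were listed at 0 in all 6. Krt31 and Krt33b share a start identifier with Krt33a in the table, so their values are uncertain.

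Because Krt26 and Krt27 stood out from their class and Krt8 led the type II chains, their upstream sequences are shown. RefSeq windows of 250 bases before the gene start, on GRCr8, were found for 32 of the 44 keratins, 6 of them among the 12 with a mean of at least 1 FPKM. Stretches of 40 bases, read 5′ to 3′ on the strand of the gene, are printed around the letters TATAAA, which are in capitals and are letters that a TATA box can have. They are at chr7:135010421-135010460 (minus strand) for Krt8, chr10:84787053-84787092 (minus strand) for Krt26, chr10:84800171-84800210 (minus strand) for Krt27 and chr7:134904169-134904208 (minus strand) for Krt76, on GRCr8, which is not the build of the table.
Krt8: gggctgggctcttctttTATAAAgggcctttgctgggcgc
Krt26: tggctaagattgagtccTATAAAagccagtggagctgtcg
Krt27: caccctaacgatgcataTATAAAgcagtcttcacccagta
Krt76: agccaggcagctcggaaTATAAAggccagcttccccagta

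The first capital letter lies 104 bases before the RefSeq gene start for Krt8, 74 for Krt26, 62 for Krt27 and 29 for Krt76. A TATA box that sets the start of transcription usually lies close to the start, as the match of Krt76 does, and the others lie farther away. The window of Krt26 holds 2 matches on the gene strand, of which 1 is printed. TATAAA was found on the gene strand in these 4 of the 6 windows and not in those of Krt18 and Krt23. Over all 32 keratin windows it was found on either strand in 20, and over 27457 RefSeq windows of the same length in 13.1%. Krt26, at 131 FPKM or more in A12 and B14, and Krt76, at 0.102 FPKM or less there, both hold it, so these letters do not sort the keratins by the tumors in which they were high. GGGCGG, the core of the GC box, was found on either strand in 4 of the 32 keratin windows, Krt18 among them, against 32.4% of all windows, and TGANTCA, the site of AP-1 factors, in 1 of the 32 against 6.36%. A match is a description of letters in the window only.

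Krt80 and Krt23 fell in none of the classes above. Krt80, a type II keratin that many epithelia make as they mature, was at 12.9, 4.04 and 17.2 FPKM in digitoxin tumors A1, A6 and A12 and at 18.5, 19.5 and 19.7 in vehicle tumors B5, B9 and B14. Every digitoxin tumor was below every vehicle tumor. The vehicle tumors lay close together, and the digitoxin tumors were spread widely, with A12 only just below the vehicle range. Krt23, a type I keratin, was at 7.27 FPKM in A1 and 5.69 in A6, against 2.20 in B5, 2.29 in B9 and 0.136 in B14, and was listed at 0 in A12. It was thus near 0 in A12 and B14. Krt42, the last of this set, was at most 0.0704 FPKM.

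The question of the study's design was whether tumors of digitoxin-treated rats differed from those of vehicle-treated rats. No keratin rose or fell at an adjusted p under 0.05. The test was limma's moderated test on log2(FPKM + 1), a scale that understates changes of low mRNAs, applied to 10749 rows whose mean FPKM was 1 or more, and p-values were adjusted over all of them by the method of Benjamini and Hochberg. Across all rows 0% passed the adjusted threshold and 0.335% (36 rows) had an unadjusted p under 0.05. Of the 12 keratins tested, 0 had an unadjusted p under 0.05, and the smallest adjusted p by limma was 0.926. The log2 fold change, digitoxin against vehicle, was negative for 8 keratins and positive for 4. Of all rows 64.9% were negative. With median-of-ratios scaling, which sets the tumors to a common median ratio, 7 keratins and 48.5% of all rows were negative. The median over the 12 was -0.39, against -0.16 over all rows tested, and under that scaling the medians were -0.19 and 0.02.

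**Figure D3:**
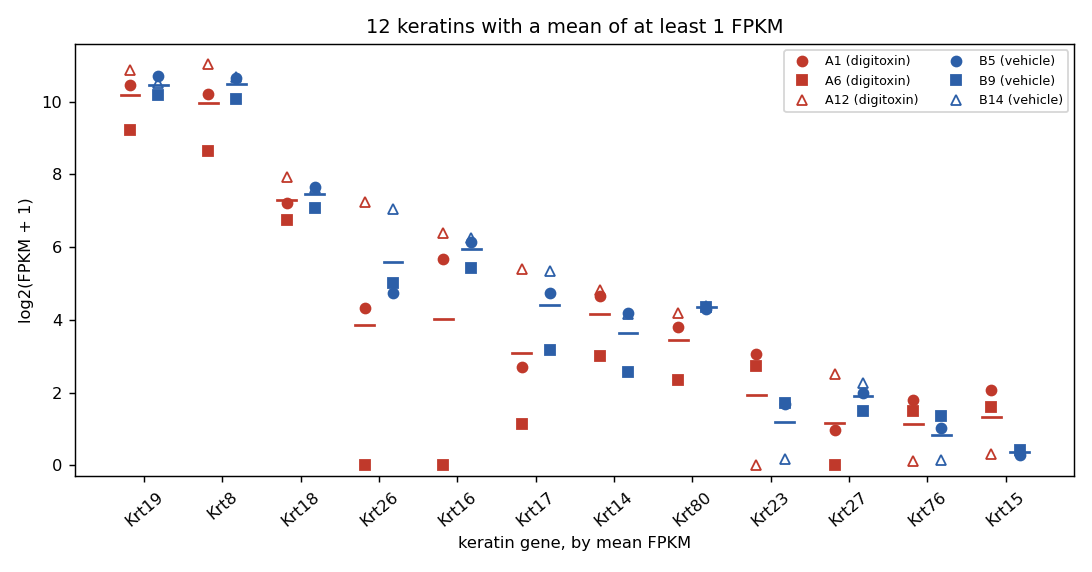
Log2(FPKM + 1) of the 12 keratins with a mean of at least 1 FPKM (horizontal axis, by mean) in each digitoxin (red) and vehicle (blue) tumor. Bars are group means, n = 3 in each, and open triangles are A12 and B14. Only the Krt80 groups do not overlap.

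The simple keratins gave small differences beside their spread. The mean level of Krt8 was 1225 ± 850 FPKM in the digitoxin group and 1444 ± 311 FPKM in the vehicle group (SD, n = 3 in each), and its log2 fold change was -0.51 with a standard error of 0.62. The 95% interval from limma ran from -2.02 to 0.997, so sizable changes in either direction lay within it. For Krt19 the means were 1293 ± 642 FPKM in treated and 1420.1 ± 255 FPKM in vehicle tumors (SD, n = 3 in each), and for Krt18 they were 165 ± 69.0 and 176 ± 37.1 FPKM (SD, n = 3 in each). Their log2 fold changes were -0.27 (standard error 0.47) and -0.15 (standard error 0.35). Without A6 the values of Krt8, Krt19 and Krt18 were 0.15, 0.21 and 0.12, so the sign of each rested on that tumor. As log2 ratios of group means they were -0.24, -0.14 and -0.0963, and with median-of-ratios scaling Krt18 was at 0.04. The group difference of each simple keratin was smaller than the spread between tumors.

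Other keratins had larger fold changes with larger errors. Krt16 (-1.92, standard error 1.64) and Krt26 (-1.74, standard error 1.79) had the lowest log2 fold changes, and both rested on A6, where each was listed at 0. Without A6 they were 0.09 and 0.19. With a pseudocount of 0.1 they were -3.02 and -2.84, and as log2 ratios of group mean FPKM, which have no pseudocount, -0.49 and -0.15. By that ratio Krt80 (-0.76), Krt17 (-0.61) and Krt27 (-0.59) were lower than both. Krt17 was at -1.34 (standard error 1.14) and Krt27 at -0.75 (standard error 0.68), and without A6 these were -0.37 and -0.17. A pseudocount of 0.1 put Krt27 at -1.83. Krt80 was at 11.4 ± 6.69 FPKM with digitoxin and 19.3 ± 0.633 FPKM with vehicle (SD, n = 3 in each), and its difference on the log2 scale was -0.90 (standard error 0.50), with an unadjusted p of 0.122 and an adjusted p of 0.926 by limma (0.251 or more under every alternative run). It was the only 1 of the 12 keratins whose groups did not overlap, and 3.26% of all rows tested were, like it, lower in every digitoxin tumor, while 0.902% were higher in every digitoxin tumor. With median-of-ratios scaling these shares were 1.88% and 2.68%, and Krt80 was again the keratin whose groups did not overlap. Without A6 its log2 fold change was -0.35.

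The 4 log2 fold changes above 0 were 0.95 for Krt15 (standard error 0.51), 0.74 for Krt23 (standard error 0.92), 0.52 for Krt14 (standard error 0.67) and 0.29 for Krt76 (standard error 0.58). Krt15 was at 1.82 ± 1.47 FPKM with digitoxin and 0.295 ± 0.0602 FPKM with vehicle (SD, n = 3 in each), and A12 lay among the vehicle tumors. Krt15 was at 1.77 with a pseudocount of 0.1 and at 2.62 as a log2 ratio of group means, where Krt23 was at 1.49 and Krt76 at 0.69. Without A1 the value of Krt23 was 0.18, and Krt15 and Krt76 fell under the minimum mean. Krt15 also fell under it without A6. Without B9 Krt14 was at -0.0088, and without B14 Krt76 was at -0.06.

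**Figure D4:**
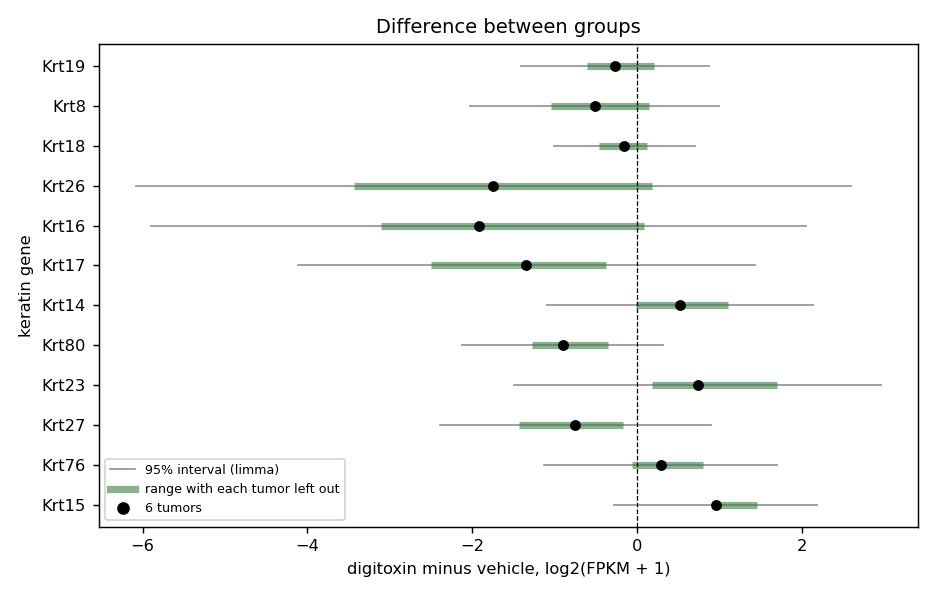
Log2 fold change on log2(FPKM + 1), digitoxin minus vehicle, for the 12 tested keratins. Points are the fit of all 6 tumors, thin lines limma's 95% intervals and thick lines the range over the fits with each tumor left out in which the keratin was tested. Every 95% interval crosses 0.

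Since A12 and B14 held nearly no lung transcripts, the comparison was repeated without both, an alternative chosen after the data were seen. It left 2 tumors in each group. Of 13 keratins then tested, Krt17, Krt26, Krt27 and Krt80 were lower in both digitoxin tumors than in both vehicle tumors, and Krt13, Krt15, Krt23 and Krt76 were higher. Over all rows of that fit 39.5% were lower and 17.7% were higher in both. None of the 13 keratins passed the adjusted threshold, and 4 (Krt15, Krt17, Krt23 and Krt27) had an unadjusted p under 0.05 by limma, as did 11.1% of all rows. Leaving out A12 alone separated the same 8 keratins, beside 34.9% of all rows lower and 15.9% higher. In that fit 6 of 13 keratins had an unadjusted p under 0.05 by limma, the smallest 0.00659 (Krt15), against 19.7% of all rows, and 0 passed the adjusted threshold.
With the replicate number as a block, which pairs A1 with B5, A6 with B9 and A12 with B14, Krt17 alone had an unadjusted p under 0.05, at 0.0310 by limma (adjusted p = 0.638), and 446 of all rows had one in place of 36.

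Across single tumors the keratins fell into contrasting orders. Among the 15 keratins that reached 1 FPKM in some tumor, A12 and B14 were the 2 highest for Krt8, Krt16, Krt17, Krt26 and Krt27 and the 2 lowest for Krt2, Krt13, Krt23, Krt75 and Krt76. Of the 12 tested keratins, 5 had the first order, against 30.1% of all rows tested, and 2 the second, against 29.3%. A6 was the lowest tumor for 8 of the 12 (Krt8, Krt16, Krt17, Krt18, Krt19, Krt26, Krt27 and Krt80), against 50.4% of all rows. These shares are descriptions, and the keratins shared the orders of many other rows. The orders are those of FPKM as deposited. They were not counted again with median-of-ratios scaling, whose factors ran from 0.801 (A6) to 1.15 (B9), so they may depend on scaling. Between A12 and B14 the tested keratins above 0 in both differed by at most 1.64-fold (Krt14).

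**Figure D5:**
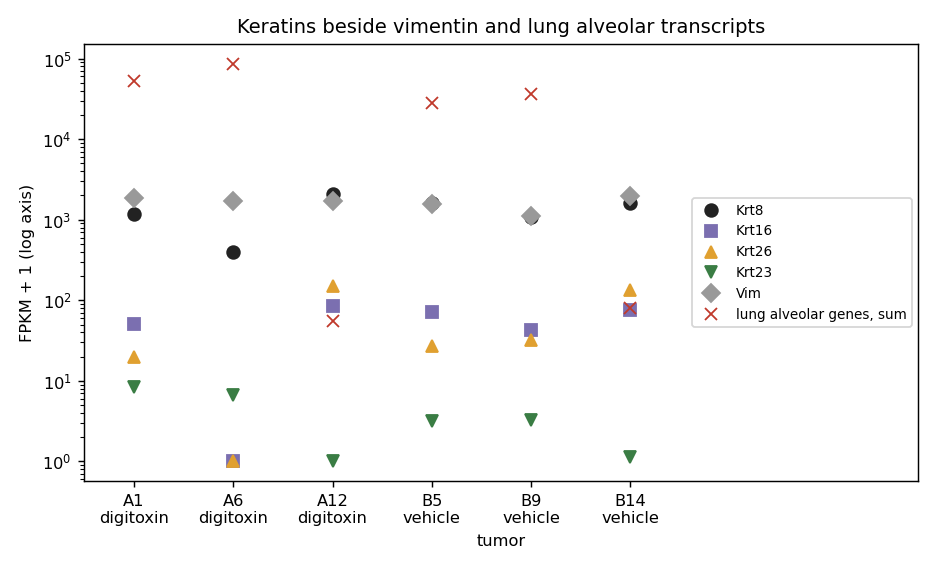
FPKM + 1 on a log axis for Krt8, Krt16, Krt26, Krt23, Vim and the sum of 13 lung alveolar genes in each tumor. Krt26 is highest and Krt23 near 0 in A12 and B14, where the alveolar sum is 54.1 and 78.8, and Krt16 and Krt26 are listed at 0 in A6, where it is 85950.

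Markers of lung moved with these orders. Of the 13 lung alveolar genes, 12 were lowest in A12 and B14, as were 8 of the 9 airway genes, whose sum ran from 7.04 FPKM in B14 and 9.92 in A12 to 131863 in A6. The surfactant genes Sftpb, Sftpa1 and Sftpc were listed at 0 in A12 and B14, except Sftpc at 0.229 FPKM in A12, and in the other tumors Sftpc was between 19188 FPKM (B5) and 63514 FPKM (A6). Of the airway genes, Scgb1a1 was highest at 129228 FPKM, Scgb3a2 at 1543 FPKM and Tppp3 at 999.5 FPKM, each in A6. A6, with the lowest keratin sum (1131 FPKM), had the highest alveolar and airway sums, and A12, with the highest keratin sum (4529 FPKM), had an alveolar sum of 54.1 FPKM. B14 had a keratin sum of 3566 FPKM, below the 3645 of B5, whose alveolar sum was 28300. The part of lung transcripts in the keratin levels was not tested. The lung lists had median log2 fold changes of 0.38 (alveolar) and 1.53 (airway), with 0 of 13 and 0 of 9 past the adjusted threshold. As background, lung epithelium and mesothelium also make simple keratins.

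Genes that anchor or control keratins were read from lists. Of 13 tested linkers, which tie keratin filaments to desmosomes, hemidesmosomes and the plakin network, 0 passed the adjusted threshold, with 4 higher and 9 lower and a median log2 fold change of -0.22. Jup, the plakoglobin of desmosomes, was steady, at 147, 155 and 115 FPKM in digitoxin tumors A1, A6 and A12 and at 113, 139 and 109.7 in vehicle tumors B5, B9 and B14. Dsc2, a desmosomal cadherin, was not, at 37.3, 2.21 and 148 FPKM in digitoxin tumors A1, A6 and A12 and at 81.4, 64.4 and 156 in vehicle tumors B5, B9 and B14. Itgb4, the integrin chain that anchors keratin to the basement membrane, had the same order at the ends, from 4.10 FPKM in A6 to 103 in A12 and 109 in B14. A6 was the lowest tumor for 8 of the 13 linkers and 8 of the 12 keratins, against 50.4% of all rows tested.

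Among 16 tested keratin regulators, 0 passed, with 7 higher, 9 lower and a median of -0.31. Elf3, an epithelial ETS factor, ran from 46.5 FPKM in A6 to 231 in A12, and Klf4, a factor of barrier epithelium, from 46.1 in B14 to 85.8 in A6. Cebpb, which takes part in keratinocyte differentiation and in inflammation, was highest in A6 at 800.1 FPKM and lowest in B14 at 149 FPKM. Of the 6 tested genes of the cornified envelope, 0 passed, with 3 higher, 3 lower and a median of -0.11. Tgm1, the transglutaminase that crosslinks the envelope, was at 177, 20.3 and 468 FPKM in digitoxin tumors A1, A6 and A12 and at 302, 209.7 and 395 in vehicle tumors B5, B9 and B14. Lypd3, a surface protein of upper epidermal layers, ran from 7.94 FPKM in A6 to 260.0 in A12, and Perp, of desmosomes, from 38.9 in A6 to 121 in A12. The envelope proteins Ivl and Sprr3 themselves were near or at 0, with highest values of 0.192 FPKM and 0, and they are named after their values were seen. Tgm1 and Lypd3 were, like Krt16, lowest in A6 and highest in A12, in tumors where Krt1 and Krt10 were under 1 FPKM. Calml3 and Lgals7, also named after their values were seen, ran the other way. They were at most 0.225 and 0.420 FPKM in A12 and B14, and at least 7.58 and 2.54 FPKM in the other tumors. Over the 6 tested envelope genes, A12 and B14 were the 2 highest tumors for 3 and the 2 lowest for 2. The shares of all rows tested were 30.1% and 29.3%.

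The other lists gave 0 genes past the adjusted threshold. The 9 other intermediate filament genes tested had a median of 0.20, with 5 higher and 4 lower, and Lmna was between 113 FPKM (A6) and 346 FPKM (A12) and Lmnb1, another nuclear lamin, between 3.02 FPKM (A6) and 52.4 FPKM (B14). The 12 general epithelial genes had a median of -0.38, with 3 higher and 9 lower, and Cldn7, a tight junction protein, ran from 141 FPKM (A6) to 633 FPKM (A12) while Spint2, a protease inhibitor, stayed between 875 and 1223 FPKM. The medians were -0.32 for 5 mesothelial, -0.16 for 4 prostate, 0.07 for 7 fibroblast and -0.29 for 8 leukocyte genes. Col1a1, a fibroblast collagen, was at 1205 FPKM in A12 and 1665 FPKM in B14 but at 12.7 FPKM in A6. A12 and B14 were the 2 highest tumors for 6 of the 7 fibroblast genes, against 30.1% of all rows tested. Krt8, Krt16, Krt17, Krt26 and Krt27 had this order too, as did 5 of the 12 general epithelial genes. Col3a1 was between 134 FPKM (A6) and 1171 FPKM (B14), and Dcn between 26.0 FPKM (B9) and 681 FPKM (B14). The part of fibroblast content in the levels of Krt26 and the other keratins was not tested. Msln, a mesothelial protein that tumors can also make, was at 77.6 FPKM in A6 and between 130 and 193 FPKM in the other tumors. The mesothelial genes Upk1b and Aldh1a2 were at most 0.633 and 0.447 FPKM in A12 and B14 and at least 22.98 and 13.0 FPKM in the other tumors. Of the leukocyte genes, Laptm5 was between 65.4 FPKM (A12) and 449 FPKM (A6), Cd68 between 85.6 FPKM (A12) and 270.1 FPKM (A6) and Cd53 between 47.7 FPKM (A12) and 149 FPKM (B5). Cd53, a surface protein of leukocytes, was lower in every digitoxin tumor than in every vehicle tumor, with a log2 fold change of -0.81. Its unadjusted p was 0.0493 and its adjusted p 0.926 by limma. Of all rows tested 3.26% were likewise lower in every digitoxin tumor, and 0.335% had an unadjusted p under 0.05. Among the 8 leukocyte genes 3 were higher and 5 lower, and Cd53 was the only 1 without overlap.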

How the data were processed

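The authors deposited 1 table of FPKM for 17557 rows, with 1 column per tumor. Single reads of 101 bases from TruSeq libraries were aligned with Bowtie 2 and TopHat 2 and quantified with Cufflinks 2. The submitters' processing notes also name CASAVA, FastQC and Cuffdiff and list hg19, a human build, for rat data, so the build is unsettled. Scaling between tumors, strand and read sharing among copies are not given in the sources used here. Columns were matched to tumors by rat number.

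The software was Python 3.11.15 with pandas 2.3.3, numpy 2.4.6 and matplotlib 3.10.9. Digitoxin was set against vehicle in limma 3.58.1 under R 4.3.3 (lmFit, eBayes with a trend) on log2(FPKM + 1) over 10749 rows whose mean FPKM was 1 or more, two-sided, with Benjamini-Hochberg adjustment over all rows. Residual SDs of the tested keratins ran from 0.477 (Krt18) to 2.73 (Krt26) on the log2 scale. How small a difference the fit could detect at such a spread was not tested. Cuffdiff needs reads and was not repeated. Of the 44 keratins, 12 passed the minimum. Members, classes and lists were chosen with earlier results of these data known. The rule for names took keratins with a mean of at least 1 FPKM or reaching it, and the 3 most abundant genes of each other list. Other genes, such as Krt4, Krt20, Krt42, Tp63 and Hoxb13, were named after their values were seen.

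Same-numbered tumors deviated together across rows (r = 0.426, 0.606 and 0.869 for replicates 1, 2 and 3), though some differently numbered tumors did so too (r = 0.644 for A1 and B9, and r = 0.612 between B5 and A6), and no label ties a number to a day or batch. The block is given beside the results it changes. Each library is 1 rat. Alternatives were a pseudocount of 0.1, no minimum, median-of-ratios scaling, no trend, the replicate block, each tumor left out, ratios of group means, other ways to sum classes and, added later, the fit without A12 and B14 and the class shares without Krt26. Some items are not reported here.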

Additional observations from a re-analysis of the deposited data

How the results depend on the processing

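No keratin passed the adjusted threshold under any alternative run, including the replicate block and each tumor left out (range 0 to 0). The count of all rows past it was 0 in each except without B14, the third vehicle replicate, and without A12 and B14, with 2 in both, so with 1 tumor left out it ran from 0 to 2. The number of keratins whose groups do not overlap was 1, became 2 (Krt80 and Krt12, the latter under 1 FPKM) with no minimum mean and 8 without A12 and B14, and with each tumor left out ran from 1 to 8, the highest without A12, where 34.9% of all rows were lower and 15.9% higher without overlap. Without A12 the rows with an unadjusted p under 0.05 rose from 36 to 2128. The median log2 fold change of the keratins ran from -0.64 (without A1) to 0.12 (without A6). Leaving out 1 tumor reversed the sign of Krt8 (range -1.05 to 0.15), Krt16 (-3.11 to 0.0900), Krt18 (-0.47 to 0.12), Krt19 (-0.61 to 0.21), Krt26 (-3.44 to 0.19), Krt14 (-0.0088 to 1.10) and Krt76 (-0.0614 to 0.80), while Krt15, Krt17, Krt23, Krt27 and Krt80 kept theirs wherever tested. Krt18 was also reversed by median-of-ratios scaling, to 0.0411, which moved the median of all rows from -0.16 to 0.02. Counting Krt17 with the squamous keratins moved the mean basal share of keratin FPKM to 0.596%, and without Krt26 the mean hair and root sheath share was 0.0962%. The replicate block changed no adjusted call. Beyond the values given, the causes were not tested. Depth is unknown, so levels under about 1 FPKM have no stated precision.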
